A study of Mus musculus with 23 samples.

Results

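The glucocorticoid response and the metallothioneins were followed through 10 genes in mouse liver at weaning. The genes were chosen by name, with earlier results of these data known. They are the receptor Nr3c1, the hormone-activating enzyme Hsd11b1, the receptor-induced genes Fkbp5, Tsc22d3, Sgk1, Zbtb16, Tat and Dusp1, and the metallothioneins Mt1 and Mt2. The deposited table holds 49585 genes, of which 14466 reached a mean of 10 counts and were tested, and all 10 genes were among these.

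Bulk polyadenylated RNA was sequenced from the livers of 23 C57Bl/6J pups of dams fed either a 45% fat diet, the metabolic syndrome (MetS) group, or a 10% fat control (Ct) diet. Diets began at 3 weeks of age and lasted 7 or 17 weeks, and the length is not given for each pup. All dams were mated to control-fed males, litters were brought to 5 pups, and pups were fostered at birth. Each liver is named by its group and animal number, and in a group's name the first word is the birth dam and the second the foster dam. The groups are MetS-MetS (n = 5, exposed before and after birth), Ct-MetS (n = 6, exposed through the foster dam), MetS-Ct (n = 6, exposed through the birth dam) and Ct-Ct (n = 6, controls that were fostered too). Livers were taken at postnatal day 21, except for MetS-Ct_97, which is labelled day 22. The labels give neither the time of day, the litter nor a batch for any pup, so pups may share a litter and the p-values then measure only the spread between these animals.

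Glucocorticoid hormone crosses the cell membrane and binds the glucocorticoid receptor, which is held in the cytoplasm by HSP90 and its co-chaperones. The bound receptor moves to the nucleus and, at DNA elements of its own, switches on genes of amino acid breakdown and glucose production in the liver, along with genes that damp the response. Blood levels of the hormone follow the time of day and rise with stress. Metallothioneins are small cysteine-rich proteins that bind zinc and copper. Their genes respond to metals through the zinc-sensing factor MTF1, and also to glucocorticoids and inflammation.

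Library totals ranged from 16876460 to 34527932 counts, with a median of 22564741 in the MetS-MetS group and between 26723111 and 28017043 in the other groups. Hepatocyte marker genes summed to 139325 to 158496 CPM (counts scaled to a common library size) in MetS-MetS and 125064 to 153138 CPM in Ct-MetS livers. In MetS-Ct they summed to 126704 to 155673 CPM and in Ct-Ct livers to 114782 to 145922 CPM. Between MetS-MetS and Ct-Ct their median log2 difference was 0.24, against -0.0038 over all genes. EdgeR called 0 of 8 there, and 4 had an unadjusted p under 0.05, as did 24.4% of all genes. Kupffer cell markers summed to 525 to 874 CPM in MetS-MetS, 609 to 860 CPM in Ct-MetS, 553 to 623 CPM in MetS-Ct and 418 to 536 CPM in Ct-Ct livers. Against Ct-Ct, edgeR called 7 of 10 Kupffer markers higher in MetS-MetS livers, where it called 5.78% of all genes. In Ct-MetS livers it called 6 of 10 higher, against 0.954% of all genes. Erythroid markers summed to 423 to 774 CPM in MetS-MetS and 205 to 497 CPM in Ct-MetS livers. They summed to 184 to 306 CPM in MetS-Ct and 286 to 833 CPM in Ct-Ct livers. EdgeR called 8 of 10 higher in MetS-MetS than in MetS-Ct, against 0.415% of all genes. Against Ct-Ct it called 4 of 10 higher in MetS-MetS and 2 of 10 in Ct-MetS livers. The median log2 difference of the 10 markers between Ct-MetS and Ct-Ct was -0.34. None of these markers was at 0 in every library. What such shifts in cell makeup contribute to the results below was not tested. In bulk liver, fewer cells of a type and less RNA per cell cannot be told apart.

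No difference between groups passed the test for any of the 10 genes. Counts were compared with edgeR's quasi-likelihood test, and p-values were adjusted by the Benjamini-Hochberg method over all 14466 genes, with 0.05 as the threshold for a call. Between MetS-MetS and Ct-Ct, 0 of the 10 genes were called, where 5.78% of all genes tested were. Between Ct-MetS and Ct-Ct, 0 of 10 were called against 0.954% of all genes, and between MetS-Ct and Ct-Ct, 0 of 10 against 0%. These comparisons share the Ct-Ct controls. Between MetS-MetS and MetS-Ct, which differ in the foster dam, 0 of 10 were called against 0.415% of all genes. The effect of the foster dam averaged over both birth dams, called postnatal exposure here, gave 0 of 10 against 4.22%. The effect of the birth dam averaged over both foster dams, called prenatal exposure, gave 0 of 10 against 0.00691%. The interaction of the exposures gave 0 of 10 against 0%. At an unadjusted p under 0.05, edgeR had 1 of the 10 genes in each of the 3 comparisons with Ct-Ct, 0 between MetS-MetS and MetS-Ct, 1 for postnatal exposure, 2 for prenatal exposure and 0 for the interaction. Of all genes tested, 24.4% had such a p between MetS-MetS and Ct-Ct, 13.9% between Ct-MetS and Ct-Ct, 5.9% between MetS-Ct and Ct-Ct and 14.1% between MetS-MetS and MetS-Ct. The share was 21.2% for postnatal exposure, 16.3% for prenatal exposure and 5.44% for the interaction. DESeq2 called Fkbp5 between MetS-MetS and Ct-Ct, where it called 1346 of the 14466 genes. It also called Fkbp5 for prenatal exposure, where it called 165 of the 14466 genes, and called none of the 10 genes elsewhere.

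The 10 genes' median log2 difference was 0.37 between MetS-MetS and Ct-Ct, where the median of all genes was -0.0038. For prenatal exposure it was 0.40, with 9 of 10 differences positive, against a median of -0.0042 over all genes. For postnatal exposure it was -0.018, with 4 of 10 positive, against -0.0075 over all genes. Between Ct-MetS and Ct-Ct it was -0.17 with 2 of 10 positive, and between MetS-Ct and Ct-Ct it was 0.23 with 8 of 10 positive. Between MetS-MetS and MetS-Ct it was 0.16 with 7 of 10 positive, and for the interaction 0.30 with 9 of 10 positive. The genes vary together among livers, as shown further on, so their signs are not separate observations. Such medians were not particular to the 10 genes. The 10 clock genes tested further on had 0.41 between MetS-MetS and Ct-Ct and 0.40 for prenatal exposure.

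**Figure D1:**
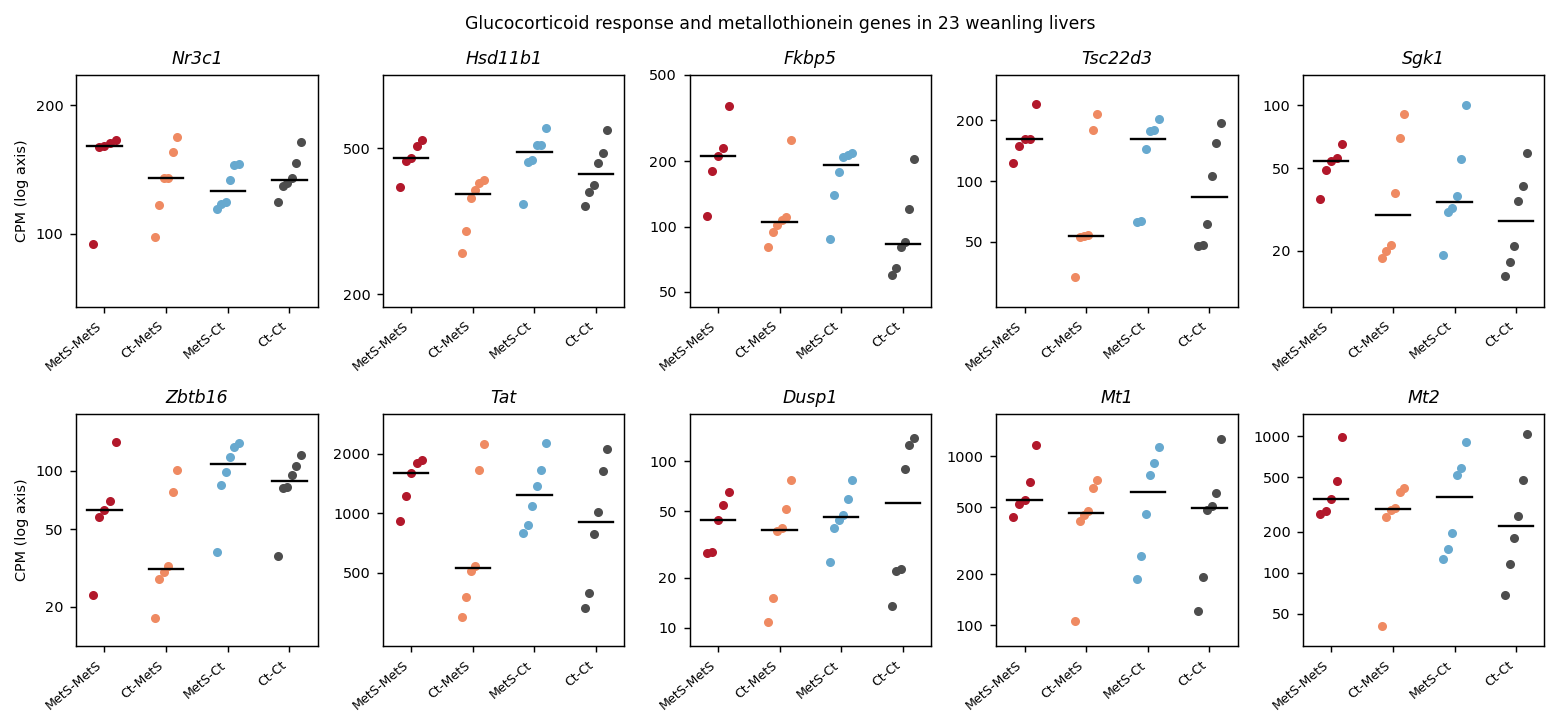
Level of each of the 10 genes in every liver, in CPM on a log axis, with MetS-MetS, Ct-MetS, MetS-Ct and Ct-Ct from left to right; points are livers and bars are group medians. The groups overlap for every gene, and Mt1, Mt2 and Dusp1 spread widely within groups, whereas Nr3c1 stays between 94.4 and 168.7 CPM.

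The receptor had the smallest range of the genes, 1.79-fold over the 23 livers. Nr3c1 had 159, 163, 166, 160 and 94.4 CPM in MetS-MetS_109, MetS-MetS_110, MetS-MetS_154, MetS-MetS_157 and MetS-MetS_39. It had 98.3, 135 and 168.7 CPM as the lowest, median and highest value in Ct-MetS, 114, 126 and 146 CPM in MetS-Ct, and 118, 133 and 165 CPM in Ct-Ct livers. All 4 groups overlapped, and the lowest liver of all 23 was MetS-MetS_39. The other 4 MetS-MetS livers lay above the highest MetS-Ct liver, so the overlap of these groups rests on MetS-MetS_39. The log2 difference between MetS-MetS and MetS-Ct was 0.20 ± 0.14 (SE; edgeR adjusted p = 0.529), and 0.33 without that liver (adjusted p = 0.162). The MetS-MetS mean was 148.6 ± 30.4 CPM (SD, n = 5) and the Ct-Ct mean 138 ± 16.0 CPM (SD, n = 6). The log2 difference was 0.11 ± 0.14 (SE; edgeR adjusted p = 0.669), and its 95% interval ran from 0.883-fold to 1.32-fold. Without MetS-MetS_39 it was 0.24 (adjusted p = 0.228). For prenatal exposure the interval ran from 0.884-fold to 1.17-fold and for postnatal exposure from 0.925-fold to 1.22-fold.

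Hsd11b1 encodes the enzyme that regenerates active glucocorticoid from its inert form inside liver cells. It had 508, 470, 461, 391 and 526.1 CPM in the MetS-MetS livers, taken in the same order. As lowest, median and highest value it had 259, 376 and 409 CPM in Ct-MetS, 351, 487 and 567.7 CPM in MetS-Ct, and 347, 426 and 560 CPM in Ct-Ct livers. All 6 Ct-MetS livers lay below the Ct-Ct mean, though the ranges overlapped. Ct-MetS averaged 353 ± 61.5 CPM and Ct-Ct 437 ± 78.4 CPM (SD, n = 6 each). The log2 difference of -0.31 ± 0.13 (SE) had an unadjusted p of 0.0297 and did not pass adjustment (edgeR adjusted p = 0.294). Prenatally exposed livers averaged 474 ± 61.5 CPM (SD, n = 11) and the others 395 ± 80.3 CPM (SD, n = 12), and 9 of the 11 exposed lay above the mean of the others. That log2 difference, 0.27 ± 0.097 (SE), did not pass either (edgeR adjusted p = 0.199; 95% interval 1.05-fold to 1.39-fold). The highest liver was MetS-Ct_97, the one labelled day 22.

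Fkbp5 came nearest to the threshold. It encodes an HSP90 co-chaperone that lowers the receptor's affinity for hormone, and it is itself induced by the receptor. Fkbp5 had 180, 212, 112, 231 and 359 CPM in the MetS-MetS livers, taken in the same order. From lowest through median to highest, values were 80.7, 105 and 250 CPM in Ct-MetS, 87.8, 193 and 219 CPM in MetS-Ct, and 59.8, 82.8 and 205 CPM in Ct-Ct livers. All 5 MetS-MetS livers lay above the Ct-Ct mean and 3 of them above the highest Ct-Ct liver. MetS-MetS averaged 219 ± 90.5 CPM (SD, n = 5) and Ct-Ct 102 ± 54.4 CPM (SD, n = 6). On the log2 scale the difference was 1.09 ± 0.35 (SE), a fold of 2.13 with a 95% interval of 1.29-fold to 3.53-fold. Its edgeR adjusted p of 0.0633 missed the threshold, and over the alternatives the adjusted p ranged from 0.0167 with DESeq2 to 0.149 without MetS-MetS_39. It fell under the threshold also without Ct-Ct_10 (adjusted p = 0.0179), Ct-MetS_65 (0.0392) or MetS-MetS_154 (0.0479).

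By birth dam, Fkbp5 averaged 194 ± 71.7 CPM in prenatally exposed livers (SD, n = 11) and 113 ± 57.0 CPM in the others (SD, n = 12), and 9 of the 11 exposed livers lay above the mean of the others. The log2 difference was 0.79 ± 0.24 (SE; edgeR adjusted p = 0.169, DESeq2 adjusted p = 0.0451), and over the alternatives the adjusted p ranged from 0.0451 to 0.298. Between MetS-Ct and Ct-Ct the log2 difference was 0.77 ± 0.33 (SE; edgeR adjusted p = 0.825). For postnatal exposure it was 0.30 ± 0.24 (SE; edgeR adjusted p = 0.499), with a 95% interval of 0.871-fold to 1.75-fold. The interaction was 0.051 ± 0.48 on the log2 scale (SE; edgeR adjusted p = 0.991).

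**Figure D2:**
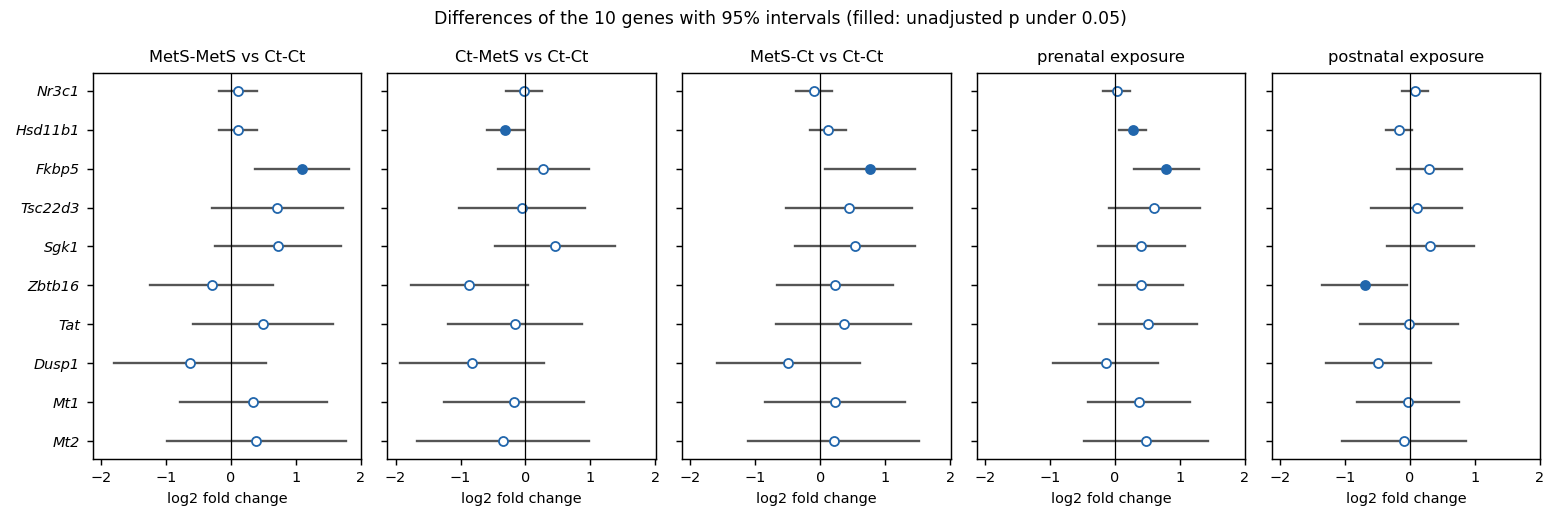
Log2 difference of each of the 10 genes in 5 of the comparisons, with 95% intervals from the edgeR fit; filled points have an unadjusted p under 0.05 and the vertical line at 0 marks no difference. Fkbp5 between MetS-MetS and Ct-Ct, at 1.09, has the largest difference whose interval lies clear of 0, and the intervals of Nr3c1 and Hsd11b1 are the narrowest.

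Tsc22d3 encodes GILZ, a leucine zipper protein that carries part of the anti-inflammatory action of glucocorticoids. It had 149.1, 162, 162, 123 and 241 CPM in the MetS-MetS livers, taken in the same order. The lowest, median and highest values were 33.5, 53.7 and 215 CPM in Ct-MetS, 62.5, 161 and 202 CPM in MetS-Ct, and 47.9, 83.6 and 194 CPM in Ct-Ct livers. All 5 MetS-MetS livers lay above the Ct-Ct mean of 102 ± 61.0 CPM (SD, n = 6), and the ranges overlapped. The log2 difference between MetS-MetS and Ct-Ct was 0.72 ± 0.48 (SE; edgeR adjusted p = 0.378), and for prenatal exposure it was 0.61 ± 0.33 (SE; edgeR adjusted p = 0.358). The interval for prenatal exposure, 0.939-fold to 2.48-fold, includes no difference as well as a doubling.

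Sgk1 encodes a kinase that glucocorticoids and mineralocorticoids induce and that regulates ion transport. It had 54.1, 64.96, 49.0, 56.0 and 35.6 CPM in the MetS-MetS livers, taken in the same order. As lowest, median and highest value it had 18.4, 29.6 and 91.3 CPM in Ct-MetS, 19.02, 34.4 and 101 CPM in MetS-Ct, and 15.1, 27.96 and 59.1 CPM in Ct-Ct livers. The MetS-MetS livers were higher than the Ct-Ct mean in 5 of 5 animals but within the range of the Ct-Ct livers in 4 of 5. On the log2 scale the difference was 0.72 ± 0.46 (SE; edgeR adjusted p = 0.352).

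Zbtb16, also called PLZF, is a zinc finger transcription factor strongly induced by glucocorticoids in several tissues. It had 57.6, 62.7, 22.96, 70.2 and 140 CPM in the MetS-MetS livers, taken in the same order. From lowest through median to highest, values were 17.6, 31.3 and 101 CPM in Ct-MetS, 38.3, 108 and 138 CPM in MetS-Ct, and 36.5, 88.6 and 120 CPM in Ct-Ct livers. MetS-MetS_39 was the highest and Ct-MetS_145 the lowest of all 23 livers, and the 4 groups overlapped. Livers of pups nursed by MetS dams averaged 58.1 ± 37.8 CPM (SD, n = 11) and the others 94.1 ± 32.4 CPM (SD, n = 12), and 2 of the 11 lay above the mean of the others. The postnatal log2 difference of -0.69 ± 0.31 (SE) had an unadjusted p of 0.0385 and did not pass adjustment (edgeR adjusted p = 0.207; 95% interval 0.392-fold to 0.975-fold). Between Ct-MetS and Ct-Ct, 4 of 6 Ct-MetS livers lay below the lowest Ct-Ct liver, and the log2 difference was -0.86 ± 0.43 (SE; edgeR adjusted p = 0.382).

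Tat encodes tyrosine aminotransferase, the first step of tyrosine breakdown and a classical glucocorticoid-induced enzyme of liver. It had 1228, 1790, 912, 1599 and 1855 CPM in the MetS-MetS livers, taken in the same order. The lowest, median and highest values were 298, 525.7 and 2233 CPM in Ct-MetS, 793, 1231 and 2277 CPM in MetS-Ct, and 330, 898 and 2126 CPM in Ct-Ct livers. The Ct-MetS and Ct-Ct ranges each span most of the 7.65-fold range of all 23 livers, while no liver of a MetS birth dam was below 793 CPM. The log2 difference between MetS-MetS and Ct-Ct was 0.50 ± 0.52 (SE; edgeR adjusted p = 0.596), and for prenatal exposure it was 0.51 ± 0.36 (SE; edgeR adjusted p = 0.474).

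Dusp1 encodes a phosphatase that switches off MAP kinases, and it responds to stress within minutes as well as to glucocorticoids. It had 54.3, 28.6, 28.3, 44.5 and 65.7 CPM in the MetS-MetS livers, taken in the same order. As lowest, median and highest value it had 10.9, 38.9 and 77.1 CPM in Ct-MetS, 24.7, 45.9 and 77.1 CPM in MetS-Ct, and 13.4, 56.2 and 138 CPM in Ct-Ct livers. Every MetS-MetS liver lay below the Ct-Ct mean of 68.5 ± 56.3 CPM (SD, n = 6) and within the Ct-Ct range. The log2 difference was -0.63 ± 0.56 (SE; edgeR adjusted p = 0.525). The gene overlaps Ergic1 on the opposite strand in GENCODE vM21, and the sources used here do not say if reads were counted by strand. The same holds for Hsd11b1 with Lamb3 and the antisense gene 4930570N18Rik, for Mt2 with the antisense gene Gm45774, and for Fkbp5 with an antisense gene and with Gm22146.

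Mt1 and Mt2 lie next to each other on mouse chromosome 8. Their promoters are shown because both genes vary more among livers than nearly all others and vary together. The windows run from 250 bases before to 50 bases after the start site in RefSeq, build GRCm38.p6. Mt1 is at chr8:94178839-94179138 and Mt2 at chr8:94172368-94172667, both on the plus strand. Capitals mark matches to the core of the metal response element, the binding site of MTF1, searched as TGCACNC or TGCGCNC on both strands.
Mt1: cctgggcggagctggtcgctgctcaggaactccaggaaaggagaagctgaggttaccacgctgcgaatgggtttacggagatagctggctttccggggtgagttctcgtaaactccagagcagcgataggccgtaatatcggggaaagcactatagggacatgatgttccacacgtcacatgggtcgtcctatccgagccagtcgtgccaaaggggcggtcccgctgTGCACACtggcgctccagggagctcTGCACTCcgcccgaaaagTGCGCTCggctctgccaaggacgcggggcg
Mt2: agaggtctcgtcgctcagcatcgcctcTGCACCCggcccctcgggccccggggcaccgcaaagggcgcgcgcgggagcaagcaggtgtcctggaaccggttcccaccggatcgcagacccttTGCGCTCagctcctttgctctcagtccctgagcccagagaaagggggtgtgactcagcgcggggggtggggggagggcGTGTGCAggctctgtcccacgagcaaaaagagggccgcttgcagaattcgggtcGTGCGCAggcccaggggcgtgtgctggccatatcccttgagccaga
The Mt1 window held 3 matches and the Mt2 window 4. Of all 32851 windows in the table, 25.7% held at least 1 match, 1.97% held 3 or more and 0.517% held 4 or more. A palindromic glucocorticoid response element, searched as GNACANNNTGTNC, matched 0.475% of windows. Among the 8 of 10 genes with a window it matched Mt1 once (GGACATGATGTTC, in lower case above) and 1 of the 6 Sgk1 windows once (GAACAGAATGTTC, in chr10:21993640-21993939). No glucocorticoid match overlapped a metal match. Hsd11b1, Dusp1 and another Sgk1 window held 1 metal match each, and the Fkbp5, Tsc22d3 and Tat windows held neither pattern. A match is a run of letters and not a measured binding site.

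Mt1 had 701, 437, 523, 547 and 1157 CPM in the MetS-MetS livers, taken in the same order. From lowest through median to highest, values were 106, 461 and 727 CPM in Ct-MetS, 187, 611 and 1128 CPM in MetS-Ct, and 122, 492 and 1269 CPM in Ct-Ct livers. The Ct-Ct range alone was 10.4-fold and covered all the other groups except the lowest Ct-MetS liver, animal 63. The log2 difference between MetS-MetS and Ct-Ct was 0.35 ± 0.54 (SE; edgeR adjusted p = 0.743), and its 95% interval ran from 0.581-fold to 2.78-fold. It was 0.061 without MetS-MetS_39 and 0.82 without Ct-Ct_33.

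Mt2 had 469, 346, 282, 268 and 982 CPM in the MetS-MetS livers, taken in the same order. The lowest, median and highest values were 40.5, 293 and 415 CPM in Ct-MetS, 127, 356 and 909 CPM in MetS-Ct, and 68.1, 220 and 1045 CPM in Ct-Ct livers. The lowest liver, Ct-MetS_63, and the highest, Ct-Ct_33, were 25.8-fold apart, the widest range among the 10 genes, and the same 2 animals were lowest and highest for Mt1. The log2 difference between MetS-MetS and Ct-Ct was 0.39 ± 0.66 (SE; edgeR adjusted p = 0.763), and its 95% interval ran from 0.504-fold to 3.41-fold. Leaving out MetS-MetS_39 turned its sign, at -0.069, and leaving out Ct-Ct_33 raised it to 1.09, with no call in either case (edgeR adjusted p = 0.966 and 0.271). For postnatal exposure Mt2 differed by -0.083 ± 0.46 and Mt1 by -0.026 ± 0.37 on the log2 scale (SE), and for prenatal exposure by 0.47 ± 0.46 and 0.37 ± 0.37, none past the threshold (edgeR). The paralogs are close in sequence, and the sources used here do not say how reads matching both were counted.

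Most of the 10 genes varied among livers of the same group far more than a typical gene. The SD of log2 CPM within groups had a median of 0.251 over the 14466 genes and of 0.820 over the 10 genes. Mt2 had an SD of 1.20, larger than in 98.5% of genes tested. Dusp1 stood at 1.01 (97.2%), Mt1 at 0.999 (97.1%), Tat at 0.896 (96.0%) and Tsc22d3 at 0.836 (95.2%). Zbtb16 at 0.803 (94.7%), Sgk1 at 0.785 (94.4%) and Fkbp5 at 0.589 (87.6%) followed. Hsd11b1 at 0.238 (46.9%) and Nr3c1 at 0.245 (48.8%) were near the middle of all genes. Hence 7 of the 10 lay above the 90th percentile of all genes, that is all but Fkbp5, Nr3c1 and Hsd11b1.

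**Figure D3:**
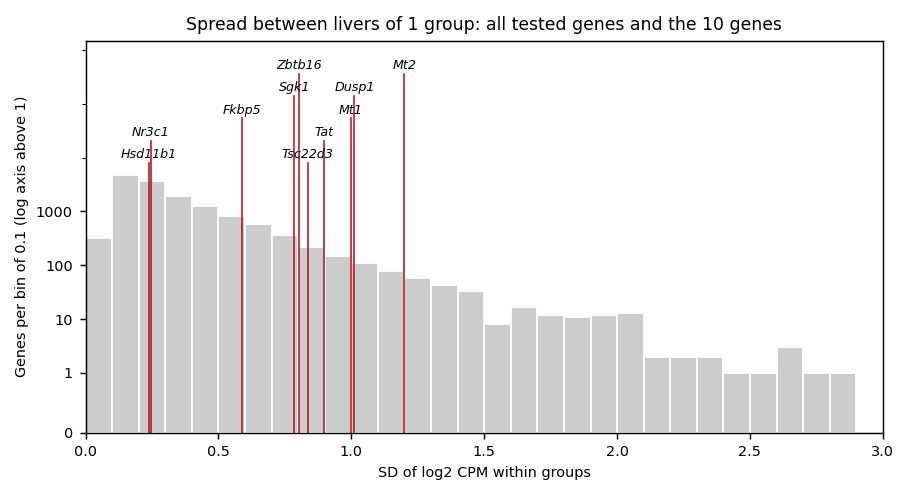
Histogram of the within-group SD of log2 CPM over the 14466 genes tested (grey, number of genes per bin of 0.1, axis logarithmic above 1), with a red line for each of the 10 genes. Nr3c1 and Hsd11b1 fall in the bulk, and Mt2 at 1.20 lies farthest to the right of the 10.

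Some livers ranked high or low for several of the 10 genes. Ranked over the 23 livers, MetS-MetS_39 was among the 5 highest for 7 of the 10 genes and lowest for Nr3c1. MetS-Ct_70 was also among the 5 highest for 7, and among the 5 lowest for Nr3c1. Ct-MetS_63 was among the 5 lowest for 8 genes, Ct-Ct_139 for 7 and Ct-MetS_169 for 6. Both livers named at the high end came from MetS birth dams and the 3 named at the low end from Ct birth dams. The ranks were taken with group means left in, so they also carry the differences for prenatal exposure given above. The genes also vary together among livers, so these counts are not separate observations. The next livers by number of genes among the 5 highest were Ct-MetS_65, MetS-Ct_97 and Ct-Ct_33, with 5 genes each, so that Ct birth dams also occurred among the high livers.

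Correlations between the genes were computed on log2 CPM with group means removed, over 23 livers, with 100000 permutations within groups, two-sided, and adjustment over the 45 pairs. Of these, 7 passed an adjusted p under 0.05, all positive. Mt1 and Mt2 had r = 0.963 (rho = 0.940, adjusted permutation p = 0.00045). Their permutation p was 1e-05, the smallest these permutations can give. Without the 2 livers farthest from the Mt1 median, Ct-MetS_63 and Ct-Ct_139, r was 0.940. For every pair, the 2 livers left out were picked by 1 gene of the pair, before group means were removed. Extremes of the other gene could stay in. The metallothioneins passed the threshold with none of the other 8 genes.

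Among the receptor-induced genes, Tsc22d3, Sgk1 and Tat correlated with each other. Tsc22d3 and Tat had r = 0.839 (rho = 0.823; permutation p = 0.00017, adjusted p = 0.00255; r = 0.853 without the 2 farthest livers). Sgk1 and Tat had r = 0.814 (rho = 0.786; permutation p = 7e-05, adjusted p = 0.00157; r = 0.752 without 2). Tsc22d3 and Sgk1 had r = 0.763 (rho = 0.738; permutation p = 0.00082, adjusted p = 0.00922; r = 0.835 without 2). These 3 pairs, like the metallothionein pair, stayed past the threshold when any 1 liver was left out.

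Zbtb16 and Fkbp5 passed the threshold with Tat and with each other, and not with Tsc22d3 or Sgk1 (adjusted permutation p = 0.360 and 0.484 for Zbtb16, and 0.225 and 0.484 for Fkbp5). Dusp1 passed with none of the other 9 genes, its strongest correlation being with Tsc22d3 (r = 0.475, rho = 0.444; permutation p = 0.0560, adjusted p = 0.280; r = 0.375 without 2). Zbtb16 and Tat had r = 0.635 (rho = 0.628; permutation p = 0.00208, adjusted p = 0.0187; r = 0.636 without 2). Fkbp5 and Zbtb16 had r = 0.627 (rho = 0.591; permutation p = 0.00336, adjusted p = 0.0252), and r = 0.492 without MetS-MetS_39 and Ct-MetS_65. Fkbp5 and Tat had r = 0.585 (rho = 0.636; permutation p = 0.00529, adjusted p = 0.0340; r = 0.506 without those 2). Leaving out 1 liver raised the adjusted p of these pairs to as much as 0.0684, 0.120 and 0.103, in the order given. Without MetS-MetS_154, or without Ct-MetS_65, 4 pairs passed.

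**Figure D4:**
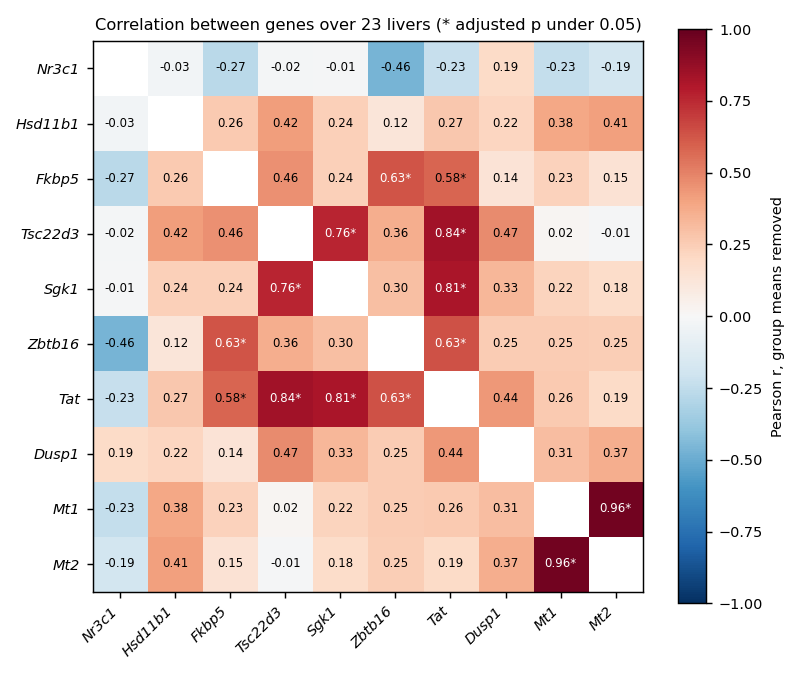
Pearson correlation of log2 CPM, group means removed, for each pair of the 10 genes over 23 livers. Mt1 with Mt2 (0.963) and the triangle of Tsc22d3, Sgk1 and Tat (0.763 to 0.839) are the strongest entries.

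**Figure D5:**
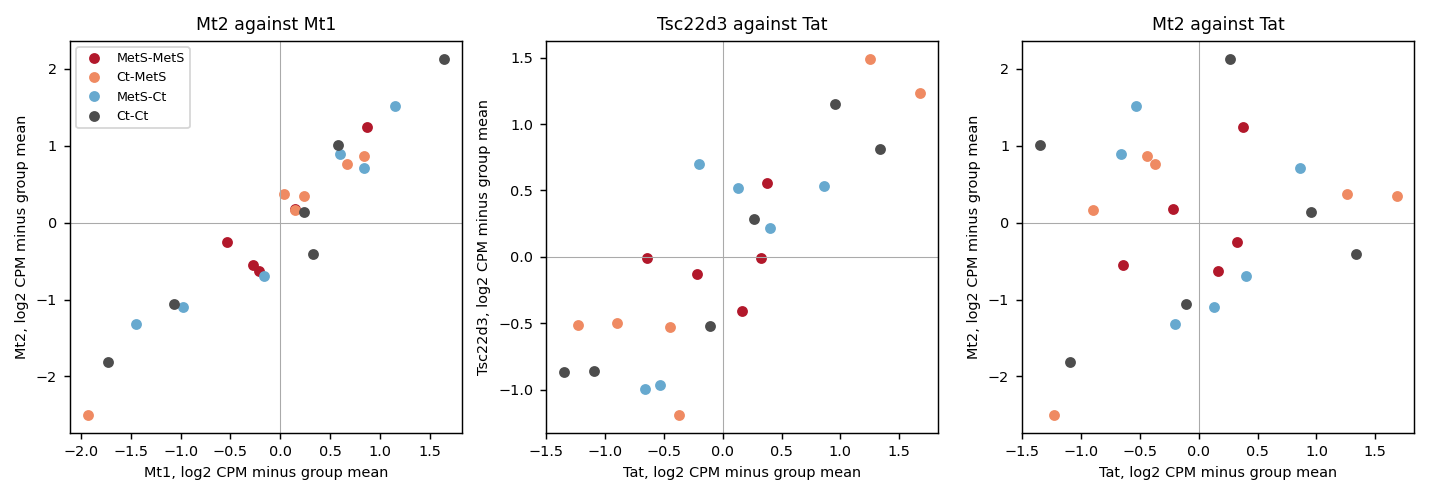
Log2 CPM, group means removed, for Mt2 against Mt1, Tsc22d3 against Tat and Mt2 against Tat, 1 point per liver and 1 colour per group. Livers of all 4 groups lie along the trend of Mt1 with Mt2 (r = 0.963) and of Tsc22d3 with Tat (r = 0.839), while Mt2 against Tat is scattered (r = 0.188).

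Known partners in time and inflammation were then related to the 10 genes, as 360 relations with genes of the circadian clock, immediate early and acute phase lists, a family chosen after the values of the 10 genes were seen. Of these, 4 passed. The 2 livers left out below were picked only by the level of the one among the 10 genes. Nr1d1, the clock repressor REV-ERBα, ran opposite to Tat (r = -0.607, rho = -0.724; permutation p = 0.00011, adjusted p = 0.0132; r = -0.641 without the 2 farthest livers). It also ran opposite to Tsc22d3 (r = -0.628, rho = -0.787; permutation p = 0.0003, adjusted p = 0.0270; r = -0.617 without 2). Nr3c1 varied in step with Steap4, a ferric reductase induced in inflamed liver (r = 0.760, rho = 0.685; permutation p = 1e-05, adjusted p = 0.0036; r = 0.722 without 2). It did so too with Cp, the copper carrier ceruloplasmin (r = 0.758, rho = 0.802; permutation p = 5e-05, adjusted p = 0.0090; r = 0.743 without 2). Only the relation of Nr3c1 with Cp stayed past the threshold when any 1 liver was left out. The others reached adjusted p-values of 0.113, 0.123 and 0.0540 for Tat, Tsc22d3 and Steap4.

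As a description over the 23 livers and 11243 genes, the genes most like Mt2 after Mt1 were Sat1 (r = 0.844), which breaks down polyamines, Adora1 (0.803), Tbk1 (0.796) and Pxmp2 (0.786). Those most like Fkbp5 were St3gal5 (0.924), Rnf217 (0.917), Nsun2 (0.891), Dcaf13 (0.888) and Tns1 (0.883). These values share libraries and depth, and carry no test.

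Other genes of the glucocorticoid pathway were counted in the same comparisons. Among 24 other known glucocorticoid-induced genes, 1 rose between MetS-MetS and Ct-Ct, and the median log2 difference was 0.40 against -0.0038 over all genes. EdgeR called 5.78% of all genes there. Of the 24, 6 had an unadjusted edgeR p under 0.05, against 24.4% of all genes. DESeq2 called 4 of the 24, and 1346 of all 14466 genes tested. The called gene was Angptl4, an inhibitor of lipoprotein lipase that is induced by glucocorticoids and by fasting. It had 114, 112, 144, 139.3 and 330.2 CPM in the MetS-MetS livers, taken in the same order, and 32.5, 66.3 and 136 CPM as the lowest, median and highest in Ct-Ct livers. On the log2 scale the difference was 1.23 ± 0.34 (SE; edgeR adjusted p = 0.0391), with overlapping ranges. Without MetS-MetS_39 it was 0.83 (adjusted p = 0.115), and the call was lost without any 1 of 8 livers, without the filter on low counts (adjusted p = 0.0818) and with only these groups fitted (0.0884). For the other 7, the adjusted p was 0.0514, 0.0537 and 0.0619 without MetS-MetS_110, MetS-MetS_154 and MetS-MetS_157. It was 0.0940, 0.0667, 0.0803 and 0.0692 without Ct-Ct_129, Ct-Ct_130, Ct-Ct_139 and Ct-Ct_4.

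For postnatal exposure 1 of the 24 rose by edgeR, which called 4.22% of all genes. Of the 24, 4 had an unadjusted edgeR p under 0.05, against 21.2% of all genes. DESeq2 called 3 of the 24, and 1038 of all 14466 genes tested. The gene that rose was Lcn2, which encodes the iron-siderophore binder lipocalin 2, made by inflamed hepatocytes and by neutrophils. Its lowest, median and highest levels were 5.52, 10.8 and 26.3 CPM in MetS-MetS and 6.53, 9.18 and 17.7 CPM in Ct-MetS livers. They were 2.54, 7.08 and 10.8 CPM in MetS-Ct and 3.83, 4.85 and 9.35 CPM in Ct-Ct livers. The log2 difference was 0.88 ± 0.25 (SE; edgeR adjusted p = 0.0464), and it stayed past the threshold in 6 of 23 runs that left out 1 liver (MetS-MetS_154, Ct-MetS_24, MetS-Ct_53, MetS-Ct_120, Ct-Ct_33 or Ct-Ct_130), with an adjusted p of at most 0.0837 in the rest. Without MetS-MetS_39 the difference was 0.66, and without the filter on low counts the adjusted p was 0.108. Neutrophil and monocyte markers summed to 12.5 to 21.3 CPM in MetS-MetS, 12.7 to 26.7 CPM in Ct-MetS, 11.7 to 31.1 CPM in MetS-Ct and 8.81 to 29.7 CPM in Ct-Ct livers, with 0 of 6 tested called in any comparison by edgeR or DESeq2 and at most 1 at an unadjusted p under 0.05. For prenatal exposure 0 of the 24 were called by edgeR, which called 0.00691% of all genes. Of the 24, 7 had an unadjusted edgeR p under 0.05, against 16.3% of all genes. DESeq2 called 1 of the 24, and 165 of all 14466 genes tested. In the other 4 comparisons edgeR and DESeq2 called 0 of the 24. There were 0 to 4 at an unadjusted p under 0.05, the 4 between MetS-MetS and MetS-Ct, where 14.1% of all genes had such a p.

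Receptor chaperones, co-regulators and hormone-handling genes gave 0 of 14 calls in each comparison by edgeR and at most 1 by DESeq2. There were 0 to 4 at an unadjusted p under 0.05, the 4 between MetS-MetS and Ct-Ct, where 24.4% of all genes had such a p. Closest were Ptges3, the HSP90 co-chaperone p23 (log2 difference 0.26 ± 0.086 between MetS-MetS and Ct-Ct, SE; edgeR adjusted p = 0.0730), and H6pd (0.27 ± 0.092 for postnatal exposure, SE; edgeR adjusted p = 0.0865), which feeds NADPH to the Hsd11b1 enzyme. Of enzymes linked to tyrosine breakdown with Tat, or to its synthesis from phenylalanine, 0 of 5 were called by edgeR and at most 1 by DESeq2. An unadjusted p under 0.05 was reached by 3 of 5 between Ct-MetS and Ct-Ct, against 13.9% of all genes. For prenatal exposure it was also 3 of 5, against 16.3% of all genes, and elsewhere 0 to 2. Qdpr (-0.38 ± 0.12) and Hgd (-0.23 ± 0.085) had the smallest p-values, both for postnatal exposure (log2, SE; edgeR adjusted p = 0.0797 and 0.115).

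Of a list of metallothionein relatives, MTF1, metal transporters and oxidative stress genes, 0 of 12 were called by edgeR in each comparison. At most 1 had an unadjusted p under 0.05, and DESeq2 called at most 1. Over the comparisons edgeR called 0% to 5.78% of all genes, and 5.44% to 24.4% had such an unadjusted p. Mt3 and Mt4 were below the count minimum. Hmox1, the haem-degrading enzyme, differed by 0.72 ± 0.19 on the log2 scale between Ct-MetS and Ct-Ct (SE; edgeR adjusted p = 0.0697, DESeq2 adjusted p = 0.0135). Hmox1 is also high in macrophages, and 6 of 10 Kupffer markers were higher in the same comparison, where 0.954% of all genes were called. Their part in this difference was not tested. Slc30a10, a manganese exporter of liver, differed by -1.27 ± 0.43 between MetS-MetS and Ct-Ct (SE; edgeR adjusted p = 0.0808).

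Acute phase genes gave 1 call of 15, Steap4, for postnatal exposure. Its lowest, median and highest levels were 116, 146 and 154.3 CPM in MetS-MetS and 114, 152 and 198 CPM in Ct-MetS livers, against 94.5, 128.7 and 143 CPM in MetS-Ct and 77.4, 109.2 and 127 CPM in Ct-Ct livers. On the log2 scale the difference was 0.37 ± 0.094 (SE; edgeR adjusted p = 0.0299). The call was lost without MetS-MetS_110 (adjusted p = 0.0545), MetS-MetS_154 (0.0541), Ct-MetS_145 (0.0504) or Ct-Ct_129 (0.0553). The same comparison had 6 of 10 Kupffer markers higher, where 4.22% of all genes were called, and their part in the result was not tested. In the other comparisons edgeR called 0 of 15 and DESeq2 at most 2. There were 0 to 5 at an unadjusted p under 0.05, the 5 between Ct-MetS and Ct-Ct, where 13.9% of all genes had such a p.

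Immediate early genes gave 0 of 11 calls by edgeR in each comparison and at most 2 by DESeq2. There were 0 to 4 at an unadjusted p under 0.05, the 4 between MetS-MetS and MetS-Ct, where 14.1% of all genes had such a p. Jun (0.67 ± 0.20) and Atf3 (1.15 ± 0.39) had the smallest p-values, both for postnatal exposure (log2, SE; edgeR adjusted p = 0.0620 and 0.0899). Clock genes gave 0 of 10 calls by edgeR and at most 1 by DESeq2. An unadjusted p under 0.05 was reached by 4 of 10 between MetS-MetS and Ct-Ct, against 24.4% of all genes. For prenatal exposure it was also 4 of 10, against 16.3% of all genes, and elsewhere 0 to 1. Per2, a clock gene that glucocorticoids also induce, differed by 1.06 ± 0.28 for prenatal exposure (log2, SE; edgeR adjusted p = 0.156, DESeq2 adjusted p = 0.0334). Ciart, a clock repressor, had 4.03, 25.4 and 35.0 CPM as lowest, median and highest value in MetS-MetS livers. It had 0.396, 1.05 and 10.8 CPM in Ct-MetS, 0.977, 5.40 and 14.3 CPM in MetS-Ct and 0.613, 1.003 and 10.7 CPM in Ct-Ct livers, and the ranges overlapped. Its difference for prenatal exposure was 1.81 ± 0.62 (log2, SE; edgeR adjusted p = 0.197). The hour at which each liver was taken is not in the labels, and its part in the spread of the hormone-induced genes was not tested.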

How the data were processed

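Polyadenylated liver RNA of 23 pups was sequenced with a directional kit, per the labels' protocols. FastQC, STAR, HTSeq and DESeq2 are named in the submitters' processing notes, without versions; the sources used here name no role for each tool, no genome build, and no rule for strand or for ambiguous reads. The authors deposited 1 table of whole-number counts per gene. Although it is named as normalised, its values behave as raw counts: each column holds every whole number from 1 to 100, and size factors ranged from 0.623 to 1.43. Symbols matched 49326 of 49585 identifiers, all columns had a sample, and Xist and Ddx3y gave 23 of 23 libraries as female. Replicates of 1 group correlated at r = 0.944 to 0.988, and none was a duplicate.

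The members and lists were chosen with earlier results of these data known. Counts were tested with edgeR 4.0.16 (R 4.3.3, TMM scaling, mean of at least 10 counts, 1 mean per group over all 23 libraries, robust quasi-likelihood fit). p-values were adjusted by Benjamini-Hochberg over 14466 genes, and 95% intervals used the 19 residual degrees of freedom. CPM are TMM-scaled, and log2 CPM used a prior count of 1. CPM is not scaled for gene length, so levels are not compared between genes. Alternatives were RLE scaling, no filter on counts, DESeq2 1.42.0, the compared groups alone, and each liver left out. The code was tested on simulated counts. Besides the 10 genes, genes named in the text were those called in each list, otherwise the 2 with the smallest p, and the 5 most correlated with Mt2 and with Fkbp5 (mean of at least 50 counts, predicted genes left out). Correlations used numpy 2.4.6, with ranks from scipy 1.17.1. Cps1 is in both the glucocorticoid-induced and the hepatocyte list. EdgeR called 0 of 8 hepatocyte, 0 of 9 lymphocyte and 0 of 4 bile duct markers in each comparison. In the same order, up to 4, 2 and 1 had an unadjusted p under 0.05, and DESeq2 called up to 1, 0 and 0. Between MetS-MetS and Ct-Ct and for postnatal exposure, edgeR called 1 of 8 stellate and 1 of 7 endothelial markers. The stellate call was lower between MetS-MetS and Ct-Ct and higher for postnatal exposure, and the endothelial call was higher in both. Of all genes, 5.78% and 4.22% were called in these comparisons.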

Additional observations from a re-analysis of the deposited data

Results flagged for a closer look

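Within groups, single livers stood apart in 9 of the 92 combinations of group and named gene that were tested, by Dixon's criterion on the gap to the nearest other liver. Chance alone flags about 1 in 20 if values are normally distributed. The criterion was applied to CPM that were not log-transformed, and combinations share livers, so the number flagged is a description and not a test.

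MetS-MetS_39 stood apart for 4 genes. It had the highest Mt2, 982 CPM against 469 CPM in the next liver, the lowest Nr3c1, 94.4 CPM against 159 CPM, the highest Angptl4, 330.2 CPM against 144 CPM, and the highest Ptges3, 80.5 CPM against 66.1 CPM. Ct-MetS_65 had the highest Fkbp5 of its group, 250 CPM (249.9) against 111 CPM in the next liver, and the highest Ciart, 10.8 CPM against 1.92 CPM. MetS-MetS_157 had the highest Atf3, 7.60 CPM against 3.14 CPM, and the highest Hgd, 611 CPM against 510.1 CPM. Ct-MetS_169 had the highest Atf3 of its group, 12.3 CPM against 2.75 CPM. The Fkbp5 difference between MetS-MetS and Ct-Ct was 1.09 on the log2 scale with Ct-MetS_65 left out (edgeR adjusted p = 0.0392), and 0.84 with MetS-MetS_39 left out (edgeR adjusted p = 0.149).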

How the results depend on the processing

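No paired analysis was possible because the animal numbers are not shared between groups. Over the 70 differences of the 10 genes, 2 were called under some alternative, both of Fkbp5, and 25 that were called nowhere changed sign under some alternative (main values up to 0.53 in size on the log2 scale), Mt2 between MetS-MetS and Ct-Ct among them. With DESeq2, 1 of the 10 genes was called between MetS-MetS and Ct-Ct and 1 for prenatal exposure, and the genes called overall numbered 425 (Ct-MetS against Ct-Ct, 138 with edgeR), 14 (MetS-Ct against Ct-Ct, 0 with edgeR), 1346 (MetS-MetS against Ct-Ct, 836), 136 (MetS-MetS against MetS-Ct, 60), 1038 (postnatal, 611), 165 (prenatal, 1) and 4 (interaction, 0). Without the filter they numbered 457 between MetS-MetS and Ct-Ct, 20 between MetS-MetS and MetS-Ct and 367 for postnatal exposure. With only the compared groups fitted they were 47 for Ct-MetS against Ct-Ct and 23 for MetS-MetS against MetS-Ct. The cause was not tested.

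Leaving out 1 liver gave 0 to 1 of the 10 genes between MetS-MetS and Ct-Ct and 0 to 0 in the other 6 comparisons. Genes called overall ranged from 12 (without Ct-MetS_169) to 246 (without Ct-Ct_33) between Ct-MetS and Ct-Ct, and from 219 (without Ct-Ct_129) to 1354 (without Ct-Ct_33) between MetS-MetS and Ct-Ct. They ranged from 5 (without MetS-Ct_70) to 151 (without MetS-MetS_39) between MetS-MetS and MetS-Ct, from 349 (without MetS-MetS_154) to 923 (without Ct-MetS_50) for postnatal exposure, from 0 to 22 (without Ct-Ct_33) for prenatal exposure, and stayed at 0 for MetS-Ct against Ct-Ct and the interaction. Pairs of the 10 genes past the threshold ranged from 4 to 8, and relations with the other lists from 1 (without MetS-MetS_39) to 7 (without Ct-Ct_33), with 2 without Ct-MetS_50 or Ct-MetS_65. With 5 or 6 livers a group, differences in the most variable genes are bounded only loosely: the interval for Mt2 between MetS-MetS and Ct-Ct spans 0.504-fold to 3.41-fold.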
